A study of Mus musculus with 20 samples.

Results

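The subject is the structural RNAs in a table of small RNA read counts from mouse skin: every entry typed rRNA, snRNA or misc_RNA. They number 107 of the 2127 entries of the table, namely 20 rRNA, 52 snRNA and 35 misc_RNA entries, and each type is described apart. Membership was set by the type column alone and not by any measured level.

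All 20 libraries were made from skin biopsies of the inbred mouse strain FVB/N, with 5 libraries in each of 4 groups. Healthy skin was treated with acetone alone. The other groups had received DMBA, a mutagen, and PMA, a phorbol ester that drives the outgrowth of mutated cells, and were hyperplastic skin, papilloma (a benign tumour) and cutaneous squamous cell carcinoma (cSCC). The labels give no age, dose or time. A biopsy holds several cell types, and fewer cells of a type and less RNA per cell cannot be told apart. Whether different biopsies are from different mice is not given in the labels, and p-values cover only the variation between these libraries, which may be technical. Against healthy skin, exposure to DMBA/PMA and the lesion itself cannot be told apart.

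Ribosomal RNAs are the scaffold and catalytic core of the ribosome. The cytoplasmic ribosome contains 5S rRNA, which is copied from many near-identical gene copies, while the mitochondrial ribosome is built on the 12S and 16S rRNAs encoded by the mitochondrial genome. Small nuclear RNAs such as U1, U2 and U6 recognise splice sites and form the spliceosome, the machine that removes introns. The misc_RNA class usually gathers RNAs of other ribonucleoproteins, such as 7SK, which holds the elongation factor P-TEFb inactive, and the RNA of RNase P, which trims the 5′ ends of tRNA precursors. All of these RNAs are longer than a miRNA, so a count in a small RNA library is a read of a short stretch, and it does not tell a fragment from an intact molecule.

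Of the 107 entries, 78 carry an Ensembl transcript ID and 29 an ID that starts with FR. In GENCODE M21, 71 of the 78 transcript IDs were found. By BLASTN against named GENCODE transcripts, all 12 rRNA entries with a transcript ID lay closest to 5S. Among the snRNA entries, 19 lay closest to U6, 5 to U1 and 5 to U2, and among the misc_RNA entries 25 lay closest to 7SK and 2 to RNase P RNA. None of the 17 named canonical transcripts looked for, which include Rn7sk, Rny1, Rny3, Vaultrc5, Rpph1, Rmrp, Terc, Rnu7, Rnu11 and Rnu12, was a member by ID. Of the FR entries, 2 matched a gene by exact start and end on the mitochondrial chromosome, the 16S gene mt-Rnr2 (FR125214) and the 12S gene mt-Rnr1 (FR030731). A further entry, FR294099, is a window of 260 bases nested in 12S. The other FR entries have no gene name in the sources used here and are given by ID and position.

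The positions mix genome builds. All 71 transcript IDs found sit at their GRCm38 coordinates, whereas 821 of 841 mature miRNAs of the same table start elsewhere than in GRCm38.p6, and the submitters' processing notes name mm9. For 53 of the 78 transcript ID entries both flanking miRNAs are displaced by more than the length of the entry (at least 244 bases). These 53 had 21 to 129 counts over all libraries, with a median of 26. Among the other 25 transcript ID entries, n-R5s194 had 8841 counts, n-R5s33 had 2200 and the U1 copy Gm26244 had 635. For n-R5s194 the miRNA on one side is displaced by 101079 bases and none lies on the other, for n-R5s33 both are displaced by 85 bases, and for Gm26244 no such miRNA was at hand. If reads were assigned by mm9 position, these names may not describe what was counted, which was not tested. All 22 mitochondrial tRNA entries sat at their GRCm38 position as well. They too carry transcript IDs, so this does not show that mm9 and GRCm38 agree there. FR125214 and FR030731, which carry no transcript ID, did match GRCm38 genes exactly.

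The 12S sequence is shown because the counts of its first part differed most between groups among the abundant rRNA entries. The stretch below is chrM:70-369 on the plus strand (GRCm38, GENCODE M21 transcript of mt-Rnr1), the first 300 bases of the gene, with the FR294099 window, chrM:89-348, in capitals.
mt-Rnr1: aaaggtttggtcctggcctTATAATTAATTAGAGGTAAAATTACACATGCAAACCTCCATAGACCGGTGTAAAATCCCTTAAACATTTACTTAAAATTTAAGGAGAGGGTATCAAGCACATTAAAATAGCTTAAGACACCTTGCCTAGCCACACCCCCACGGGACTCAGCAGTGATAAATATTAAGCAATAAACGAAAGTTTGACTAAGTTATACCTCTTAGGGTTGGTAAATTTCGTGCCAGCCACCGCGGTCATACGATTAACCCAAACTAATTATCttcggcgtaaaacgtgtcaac

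Total counts per library ranged from 4753061 to 7395047 in healthy skin, 5239742 to 10117810 in hyperplastic skin, 1270588 to 3797597 in papilloma and 2028162 to 3915431 in cSCC. Every papilloma and cSCC library was thus shallower than every library of the other two groups. All 14 cell type marker miRNAs were counted in every library, with at least 58 counts each, and the keratinocyte pair miR-203-3p and miR-205-5p summed to 54785 to 155805 CPM. CPM are counts scaled to 1000000 per library with factors from the 495 entries with a mean of at least 50 CPM.

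As a share of all counts, the rRNA entries held 0.554% to 1.09%, the snRNA entries 0.0181% to 0.056% and the misc_RNA entries 0.000247% to 0.00708%. A single entry, mitochondrial 16S, made up 93.6% of the rRNA counts. The rRNA share was 0.679% ± 0.063 for healthy skin, 0.718% ± 0.173 for hyperplastic skin, 0.848% ± 0.049 for papilloma and 0.743% ± 0.201 for cSCC (mean ± SD, n = 5 per group). The 5 papilloma libraries, at 0.780% to 0.897%, lay above the 5 healthy ones, at 0.612% to 0.776%, and the cSCC libraries overlapped with all groups. The snRNA share was 0.0265% ± 0.013 for healthy skin, 0.0231% ± 0.0049 for hyperplastic skin, 0.037% ± 0.0137 for papilloma and 0.0441% ± 0.0092 for cSCC (mean ± SD, n = 5 per group). The cSCC libraries, at 0.0306% to 0.056%, lay above the hyperplastic ones, at 0.0181% to 0.0296%, and healthy 7, at 0.0495%, lay within the cSCC range. These shares are descriptions and were not tested.

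**Figure D1:**
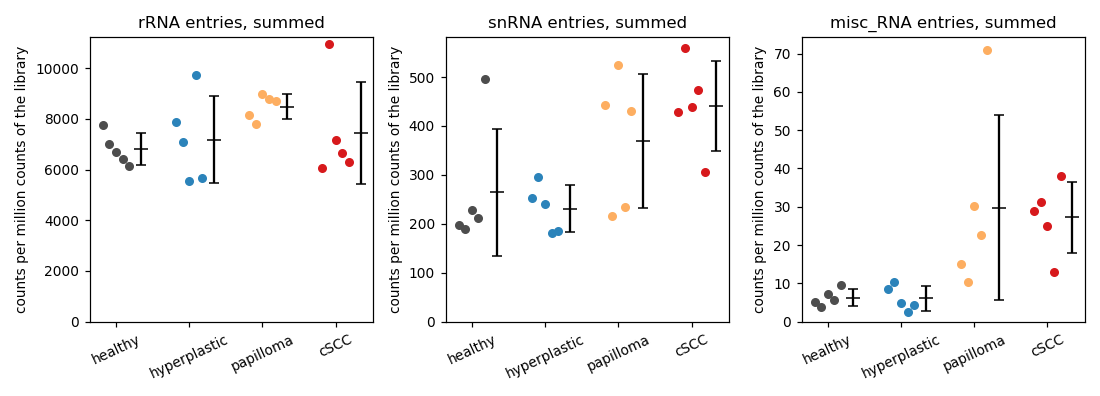
Summed counts of the rRNA, snRNA and misc_RNA entries in CPM of total counts; dots are libraries, and the bar beside them is the mean ± SD (n = 5 per group). Papilloma rRNA values form a narrow band from 7800 to 8970, and misc_RNA values stay at or below 10.4 in healthy and hyperplastic skin.

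Mitochondrial 16S rRNA, the large subunit RNA of the mitochondrial ribosome, passed the test in none of the 6 comparisons. Its level was 6942, 6559, 6348, 6733 and 4950 CPM in healthy skin, 7109, 5755, 4886, 9713 and 6406 CPM in hyperplastic skin, 6310, 6170, 7102, 7848 and 7795 CPM in papilloma and 6056, 11605, 7534, 7256 and 5701 CPM in cSCC. The ranges of all groups overlapped, and cSCC 2 was the highest library. The log2 fold change of 16S was 0.27 ± 0.23 in cSCC against healthy skin (SE; edgeR quasi-likelihood test, adjusted p = 0.327) and 0.16 ± 0.23 in papilloma against healthy skin (adjusted p = 0.6). Its sign turned under other scalings, so no direction is given for it.

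The 12S rRNA, the small subunit RNA of the same ribosome, rose in cSCC. Its level was 196, 135, 226, 228 and 246 CPM in healthy skin, 186, 164, 170, 219 and 171 CPM in hyperplastic skin, 258, 221, 497, 264 and 355 CPM in papilloma and 350, 952, 629, 399 and 444 CPM in cSCC. All cSCC libraries lay above all healthy and all hyperplastic ones, and papilloma 4 was the highest of the papillomas. The log2 fold change was 1.43 ± 0.29 in cSCC against healthy skin (SE; edgeR, adjusted p = 0.000419) and 1.61 ± 0.29 in cSCC against hyperplastic skin (adjusted p = 0.000164). Both calls held under all 9 other settings of the fit and in all 20 fits that left out a library. In papilloma against hyperplastic skin it was 0.81 ± 0.29 (edgeR, adjusted p = 0.0364), with no overlap between the groups. That call was lost with TMM factors over all tested entries (0.45, adjusted p = 0.232) and with DESeq2 size factors. Mature miRNA counts as the scale and the replicate number as a block (0.92, adjusted p = 0.125) lost it too. It was also lost without any one of hyperplastic 1, 2, 5 or 8 or papilloma 4 (adjusted p 0.0539 to 0.14).

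The 260-base window within 12S rose in cSCC as well. Its level was 46.9, 35.4, 56.4, 56.5 and 75.0 CPM in healthy skin, 44.3, 35.1, 55.4, 49.6 and 40.0 CPM in hyperplastic skin, 67.0, 45.8, 217, 71.0 and 113 CPM in papilloma and 129, 440, 270, 163 and 156 CPM in cSCC. Every cSCC library was above every healthy and hyperplastic one, and papilloma 4 again was the highest of its group. The log2 fold change was 2.10 ± 0.38 in cSCC against healthy skin (SE; edgeR, adjusted p = 0.000137), a 4.28-fold rise, and 2.37 ± 0.39 in cSCC against hyperplastic skin (adjusted p = 5.37e-05). In papilloma against hyperplastic skin it was 1.19 ± 0.38 (adjusted p = 0.0197). That call was lost with TMM factors over all tested entries (0.79, adjusted p = 0.0833) and with DESeq2 size factors (0.75, adjusted p = 0.0953). It was also lost with the replicate number as a block (1.18, adjusted p = 0.127) and without papilloma 4 (0.72, adjusted p = 0.132). In cSCC against papilloma it was 1.18 ± 0.38 (edgeR, adjusted p = 0.0726), and DESeq2 called it (adjusted p = 0.0303), as did edgeR without papilloma 4 (1.65, adjusted p = 0.00861).

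Ratios within the mitochondrial chromosome do not depend on the scaling of libraries. The 12S count per 100 16S counts was 3.36 ± 1.07 for healthy skin, 2.77 ± 0.45 for hyperplastic skin, 4.52 ± 1.46 for papilloma and 7.12 ± 1.38 for cSCC (mean ± SD, n = 5 per group). The cSCC libraries spanned 5.50 to 8.35, above healthy skin at 2.06 to 4.97 and hyperplastic skin at 2.25 to 3.48, while papilloma 4, at 7.004, lay within the cSCC range. In CPM of total counts and per kilobase of entry, the 16S level was 4141 ± 1068 and the 12S level 499 ± 199.6 in cSCC, against 4045 ± 447 for 16S and 219.8 ± 50.2 for 12S in healthy skin (mean ± SD, n = 5 per group). The window makes up 27.2% of the length of 12S. It held 26.1% ± 2.6 of the 12S counts for healthy skin, 24.8% ± 4.5 for hyperplastic skin, 29.8% ± 8.7 for papilloma and 40.4% ± 4.4 for cSCC (mean ± SD, n = 5 per group), taking window reads as counted in both entries. The cSCC libraries, at 35.2% to 46.2%, lay above all healthy libraries, at 24% to 30.5%, and all hyperplastic ones, at 21.3% to 32.6%. Outside the window, 12S stood at 4.22 ± 0.75 counts per 100 16S counts in cSCC, against 2.46 ± 0.71 in healthy skin (SD, n = 5 each). Here the ranges overlapped, at 3.26 to 5.04 in cSCC and 1.52 to 3.45 in healthy skin. The base composition of the 3 is alike, with a GC share of 37.7% in the window, 35.8% in 12S and 35.4% in 16S. The 21 tested mitochondrial tRNAs had another direction: in cSCC against healthy skin 15 fell and 0 rose, with a median log2 fold change of -1.26. Of all tested entries, 10.3% fell and 38.4% rose in that comparison.

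**Figure D2:**
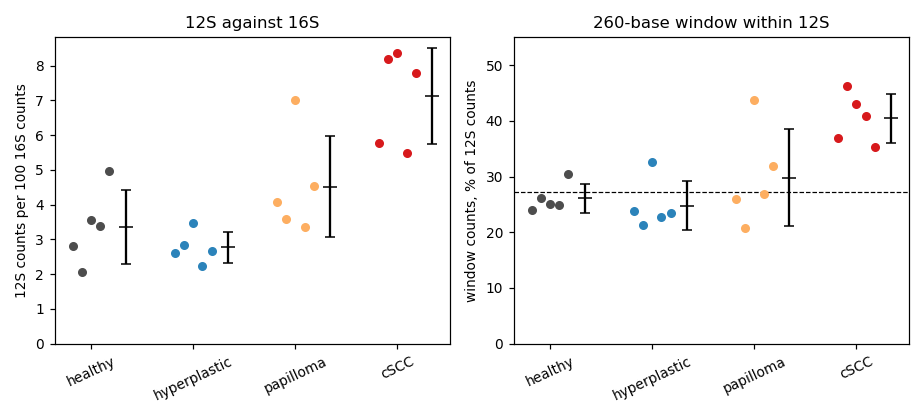
Left, 12S counts per 100 16S counts; right, counts of the 260-base window as a percentage of 12S counts, with the dashed line at its share of the length (27.2%). Dots are libraries and bars the mean ± SD (n = 5 per group); all 5 cSCC libraries lie above all healthy libraries in both.

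As given above, the name of n-R5s194, the most counted 5S entry, may not describe what was counted. The entry was higher in cSCC than in hyperplastic skin. Its level was 97.3, 55.7, 74.0, 55.2 and 178 CPM in healthy skin, 54.0, 41.1, 55.4, 76.5 and 40.0 CPM in hyperplastic skin, 77.0, 55.3, 203, 109 and 146 CPM in papilloma and 280, 282, 107, 196 and 59.0 CPM in cSCC. The groups overlapped: healthy 7 was high and cSCC 6 low within their groups. The log2 fold change was 1.79 ± 0.42 in cSCC against hyperplastic skin (SE; edgeR, adjusted p = 0.00147), which held under all 9 other settings and without each library. In cSCC against healthy skin it was 1.01 ± 0.41 (edgeR, adjusted p = 0.0439). That call was lost in 6 of the 9 other settings, among them TMM factors over all tested entries (0.53, adjusted p = 0.27). It was also lost without any one of healthy 2, 3, 4 or 5, hyperplastic 8, papilloma 5 or cSCC 1, 2 or 4 (adjusted p 0.0614 to 0.161). In papilloma against hyperplastic skin n-R5s194 gave 1.14 ± 0.41 (edgeR, adjusted p = 0.0393). This held in 5 of the 9 other settings and was lost in the rest, among them TMM factors over all tested entries (0.74, adjusted p = 0.155). It was also lost without any one of hyperplastic 1, 2, 5 or 8 or papilloma 4 or 6 (adjusted p 0.0517 to 0.139). The second 5S entry, n-R5s33, stood at 29.8 ± 16.5 CPM in cSCC, against 19.8 ± 9.9 CPM in healthy skin (SD, n = 5 each), with a log2 fold change of 0.59 ± 0.40 (SE; edgeR, adjusted p = 0.212). The other 10 5S entries had 23 to 58 counts over all 20 libraries and were not tested.

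**Figure D3:**
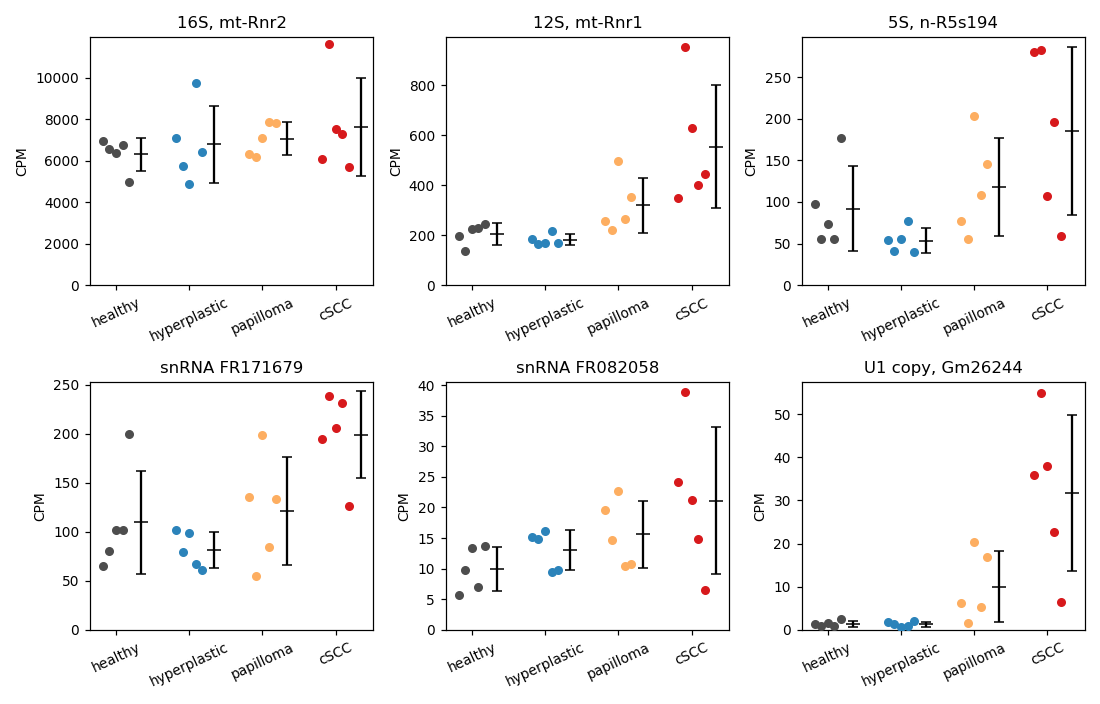
CPM per library of 6 structural RNA entries; dots are libraries, bars the mean ± SD (n = 5 per group), and each panel has its own axis from 0. The 16S panel overlaps across groups, while in the 12S panel all cSCC libraries lie above healthy and hyperplastic skin, and in the Gm26244 panel all cSCC libraries do so with cSCC 6 at 6.5 CPM.

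The low-count filter left 8 rRNA, 11 snRNA and 0 misc_RNA entries among the 1522 tested. An entry counted only where it is high passes more easily, so these 19 do not stand for all 107. In cSCC against healthy skin, 3 of 8 rRNA entries rose and 0 fell, where 38.4% of all tested entries rose and 10.3% fell. 12S and the window nested in it are both among these 3 and among those called against hyperplastic skin below. The median log2 fold change was 0.69 for rRNA, close to 0.72 for all tested entries. Of all calls in that comparison 78.8% were higher, and 51.5% to 66.5% under the other 4 scalings. In papilloma against healthy skin 0 of 8 rRNA entries passed edgeR's test, with 2 at an unadjusted p under 0.05, where 30.4% of all tested entries rose and 8.41% fell, and DESeq2 called 1, the 12S window. In hyperplastic against healthy skin 0 of 8 passed in edgeR and 0 of the 6 with an adjusted p in DESeq2, with 1 at an unadjusted p under 0.05 in each, where 0.197% of all entries were called. In papilloma against hyperplastic skin 5 of 8 rose, where 23.7% of all rose and 7.23% fell. In cSCC against hyperplastic skin 5 of 8 rose, where 33.9% of all rose and 11.2% fell. The count in papilloma against hyperplastic skin fell to 0 with TMM factors over all tested entries and with DESeq2 size factors. With these scalings, 246 and 243 of all 1522 tested entries rose. The rRNA count ranged from 1 to 5 when a library was left out, with 1 without hyperplastic 2, hyperplastic 5 or papilloma 4, 2 without hyperplastic 1, hyperplastic 8 or papilloma 6 and 3 without papilloma 5. In cSCC against papilloma 0 of 8 passed in edgeR, with 2 at an unadjusted p under 0.05, where 4.86% of all were called, and DESeq2 called 1. Across the 4 groups, 4 of 8 rRNA and 6 of 11 snRNA entries differed, where 56.6% of all tested entries did.

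The abundance of an entry matters for such counts. Among the 688 tested entries with a mean of 5 to 50 counts, 47.5% rose in cSCC against healthy skin, with a median log2 fold change of 1.29, and 42.6% rose in papilloma against healthy skin, with a median of 1.25. Of the tested members, 9 lie in this range, 3 rRNA and 6 snRNA entries. The rRNA entry FR338578 stood at 5.98 ± 3.4 CPM in cSCC, against 1.93 ± 0.64 CPM in hyperplastic skin (SD, n = 5 each), without overlap. Its log2 fold change was 1.63 ± 0.47 (SE; edgeR, adjusted p = 0.00744), and the call was lost with mature miRNA counts as the scale (1.02, adjusted p = 0.0701). Over all tested entries, fold changes in cSCC against healthy skin lay lower by a median of 0.45 (log2) with TMM factors over all tested entries, 0.55 with DESeq2 size factors, 0.42 with mature miRNA counts and 0.23 with total counts.

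The largest log2 fold changes of the 19 tested members were those of snRNA entries. In cSCC against healthy skin 8 of 11 tested snRNA entries rose and 0 fell, against the background of 38.4% rising, with a median log2 fold change of 1.10 beside 0.72 for all tested entries. That count was 5 with TMM factors over all tested entries and 3 with DESeq2 size factors, where 377 and 337 of all 1522 rose. It was also 5 without healthy 2, healthy 5 or cSCC 2. In papilloma against healthy skin 3 of 11 rose, against 30.4% of all tested entries. These were the same Gm26244, FR393530 and Gm24292, so this count too is given as description. In hyperplastic against healthy skin 0 of 11 passed in edgeR and 0 of the 7 with an adjusted p in DESeq2, with 0 at an unadjusted p under 0.05 in either, where 0.197% of all entries were called. In cSCC against hyperplastic skin 6 of 11 rose, Gm26244, FR393530 and Gm24292 among them, where 33.9% of all tested entries did. In papilloma against hyperplastic skin 2 of 11 rose, Gm26244 and FR393530, where 23.7% of all did. That count was 5 without papilloma 1 or cSCC 4 and 4 without papilloma 3, cSCC 1 or cSCC 2. In cSCC against papilloma 0 of 11 passed in edgeR, with 4 at an unadjusted p under 0.05, where 4.86% of all were called, and DESeq2 called 1 of the 9 it gave an adjusted p.

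By its transcript ID, the snRNA entry Gm26244 is a copy of U1, the RNA that pairs with the 5′ splice site. It is 99.4% identical to Rnu1a1 over its 164 bases. Its counts were 10, 5, 7, 5 and 14 in healthy skin, 10, 12, 4, 8 and 12 in hyperplastic skin, 28, 6, 42, 16 and 22 in papilloma and 107, 124, 124, 66 and 13 in cSCC. Counts in 4 of the 5 cSCC libraries were higher than in every healthy library although the cSCC libraries were shallower. In CPM, cSCC averaged 31.6 ± 18.1, papilloma 10.01 ± 8.2 and healthy skin 1.39 ± 0.66 (SD, n = 5 each). All cSCC libraries lay above all healthy ones, cSCC 6 being the lowest of them with 6.5 CPM. The log2 fold change was 4.50 ± 0.61 in cSCC against healthy skin (SE; edgeR, adjusted p = 4.3e-06) and 4.63 ± 0.61 in cSCC against hyperplastic skin (adjusted p = 4.43e-06). It was 2.77 ± 0.60 in papilloma against healthy skin (adjusted p = 0.00141) and 2.90 ± 0.60 in papilloma against hyperplastic skin (adjusted p = 0.00171). These 4 calls held in every other setting that tested the entry and in all fits that left out a library. Gm26244 passed the low-count filter mainly through the tumour libraries, so its p-values and rank are given as description. In cSCC against healthy skin its fold change ranked 4 from the top among the 688 entries with 5 to 50 counts. In cSCC against papilloma it was 1.73 ± 0.54 (edgeR, adjusted p = 0.0676). DESeq2 called that difference (adjusted p = 0.0245), as did edgeR without papilloma 4, papilloma 6 or cSCC 6 (adjusted p 0.0258 to 0.0395). Reads of near-identical U1 genes may be shared or split among copies, so the value may not belong to this copy alone. If reads were assigned by mm9 position, the counts may not be those of U1, which was not tested.

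Gm24292, 96.9% identical to U6 (the RNA at the catalytic centre of the spliceosome) over 90.7% of its length, was scarce, and with a mean of 6.45 counts it is given with values after these were seen. It stood at 3.89 ± 1.2 CPM in cSCC, against 0.491 ± 0.35 CPM in healthy skin (SD, n = 5 each), with no overlap. Its log2 fold change was 2.90 ± 0.64 (SE; edgeR, adjusted p = 0.000888), at rank 28 of the 688 entries. The remaining 18 U6-like, 4 U1-like and 5 U2-like entries had 21 to 129 counts each over all 20 libraries, and none of them passed the low-count filter. The 27-base entry FR393530 (11:87236574-87236600), named after its values were seen because its mean of 8 counts lies outside the rule for named entries, stood at 7.16 ± 3.1 CPM in cSCC, against 0.241 ± 0.28 CPM in healthy skin (SD, n = 5 each). Its log2 fold change was 4.78 ± 0.83 (edgeR, adjusted p = 7.54e-05), at rank 2 of the 688. It had 0 to 4 counts per library in healthy skin and 1 to 8 in hyperplastic skin. Both FR393530 and Gm24292 passed the low-count filter mainly through the tumour libraries, and their p-values and ranks are given as description.

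The 2 most counted snRNA entries, FR171679 (11:101507374-101507392) and FR395482 (11:101503052-101503290), lie 4083 bases apart and moved together. FR171679 stood at 64.7, 80.3, 102, 102 and 199 CPM in healthy skin, 102, 78.8, 98.7, 67.3 and 60.6 CPM in hyperplastic skin, 136, 54.3, 199, 84.3 and 133 CPM in papilloma and 194.04, 238, 206, 231 and 126 CPM in cSCC. All cSCC libraries lay above all hyperplastic ones, while healthy 7 lay within the cSCC range. The log2 fold change of FR171679 was 1.29 ± 0.33 in cSCC against hyperplastic skin (SE; edgeR, adjusted p = 0.00346), and FR395482 gave 1.31 ± 0.33 (adjusted p = 0.003). With mature miRNA counts as the scale both calls were lost (0.67, adjusted p = 0.132, and 0.70, adjusted p = 0.115). In cSCC against healthy skin FR171679 gave 0.86 ± 0.33 (edgeR, adjusted p = 0.0347) and FR395482 0.82 ± 0.33 (adjusted p = 0.0414). Each of these was lost in 5 of the 9 other settings, among them TMM factors over all tested entries (0.41 and 0.38). The call for FR171679 was also lost without any one of healthy 2, 3, 4 or 5 or cSCC 2, 3 or 4, and that for FR395482 without any of these 7 or without hyperplastic 8 or papilloma 5. Per 100 counts of FR171679, FR395482 had 67.6 ± 1.2 for healthy skin, 64.8 ± 1.1 for hyperplastic skin, 64.8 ± 2.8 for papilloma and 66.05 ± 3.0 for cSCC (mean ± SD, n = 5 per group). Their Spearman correlation over the 20 libraries was 0.989, as a description of points that share libraries and depth. Whether they share reads was not tested.

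Among the less counted snRNA entries, FR277421 (6:124691243-124691509) stood at 16.1 ± 9.3 CPM in cSCC, against 5.58 ± 2.2 CPM in healthy skin (SD, n = 5 each). Its log2 fold change was 1.53 ± 0.44 (SE; edgeR, adjusted p = 0.00617), which was lost with DESeq2 size factors (0.94, adjusted p = 0.0634). FR082058 (4:131825995-131826128) stood at 21.1 ± 12 CPM in cSCC, against 9.91 ± 3.6 CPM in healthy skin (SD, n = 5 each), a log2 fold change of 1.10 ± 0.38 (edgeR, adjusted p = 0.0215). That call was lost in 6 of the 8 other settings that tested it, among them total counts (0.82, adjusted p = 0.0897), and without healthy 2, healthy 5 or cSCC 2 (0.73 to 0.99, adjusted p 0.0552 to 0.127). FR082058, with 1301 counts over all libraries, shares 107 of its 134 bases with a snoRNA entry, FR197067, which had 1173 counts. FR249206 (15:82980074-82980224) stood at 31.2 ± 14.0 CPM in cSCC, against 20.2 ± 9.2 CPM in healthy skin (SD, n = 5 each), and passed no test (0.63 ± 0.44, edgeR, adjusted p = 0.224). Its counts were nearly those of FR297789, the 45 bases at its end, with 2472 and 2461 over all libraries. A piRNA entry, FR075111, that ends at the same base had 2063 counts. Whether nested entries, 12S and its window included, count the same reads was not tested. The counts of called entries take each of them singly, so these are not counts of independent entries.

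**Figure D4:**
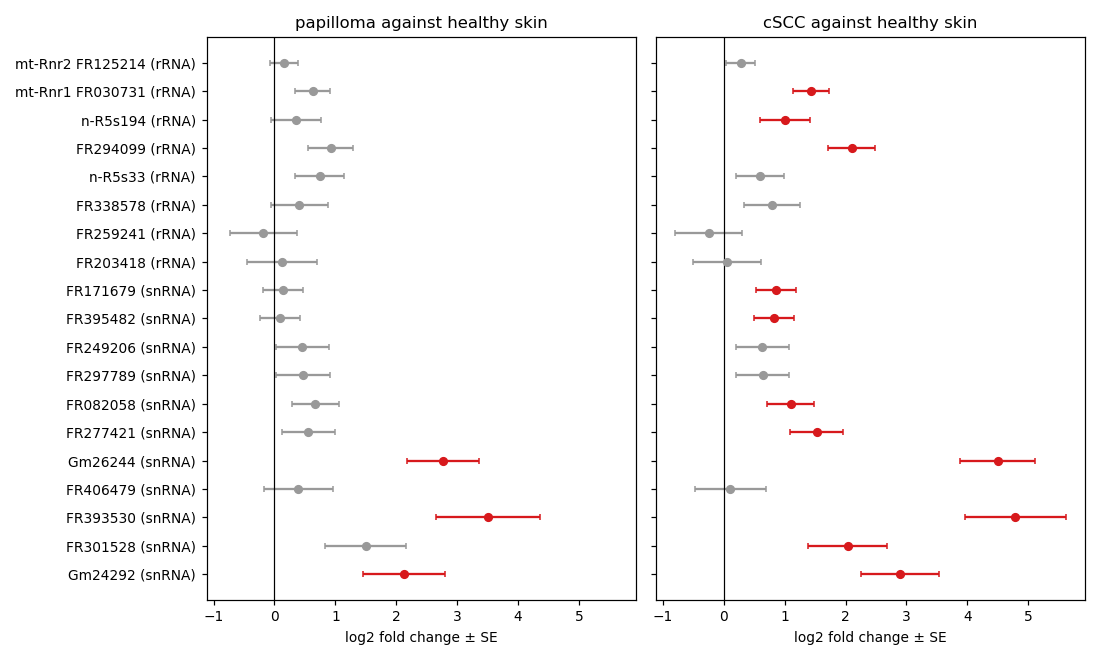
Log2 fold change ± SE (edgeR) of the 19 tested members in papilloma and in cSCC against healthy skin, on a common axis; red marks an adjusted p under 0.05 over all 1522 tested entries and grey the others. No red point lies below 0, and Gm26244 and FR393530 lie farthest to the right in both panels.

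Markers of other cell types moved with the same groups. The 4 leukocyte miRNAs summed to 10241 to 16885 CPM in healthy skin, 5446 to 12346 in hyperplastic skin, 7715 to 82235 in papilloma and 41038 to 111926 in cSCC, and in cSCC against healthy skin 2 of 4 rose and 1 fell. The 3 striated muscle miRNAs summed to 9342 to 41355 CPM in healthy skin, 9721 to 26165 in hyperplastic skin, 1418 to 5332 in papilloma and 1566 to 2730 in cSCC, and 3 of 3 fell in cSCC against healthy skin. Of the other lists in that comparison, 2 of 2 smooth muscle and 1 of 2 keratinocyte miRNAs fell, and 0 of 1 endothelial and 0 of 2 erythroid miRNAs passed edgeR's test. The leukocyte sum was 7715, 12729, 17574, 17624 and 82235 CPM in papilloma 1, 3, 4, 5 and 6, and 42938, 86920, 62566, 41038 and 111926 CPM in cSCC 1, 2, 3, 4 and 6. Among the papillomas, papilloma 6 had the highest leukocyte sum and the second highest 12S, 12S window and Gm26244 levels, and papilloma 4 had the highest of these 3 levels. Among the cSCC libraries, cSCC 2 and cSCC 3 had higher leukocyte sums and higher levels of all 3 than cSCC 1 and cSCC 4, while cSCC 6 had the highest leukocyte sum and the lowest Gm26244 level. The part of cell composition in these results was not tested.

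The 35 misc_RNA entries were at the edge of detection. They had 21 to 58 counts each over all 20 libraries, and none passed the low-count filter. The 6 with the highest mean CPM included 5 7SK-like entries, of which Gm22261 had 58 counts in all, Gm23773 and Gm26274 had 56 each, Gm22257 had 48 and Gm22202 had 45. The sixth, ENSMUST00000174980, an ID not found in GENCODE M21, had 46 counts. Rprl3, an RNase P RNA copy, had 49 counts. All 25 7SK-like entries were partial relatives: 19.7% to 78.6% of the entry aligned, with 65.9% to 91.5% identity over that part. Summed over the 35 entries, the counts were 34, 22, 34, 42 and 50 in healthy skin, 45, 88, 29, 25 and 32 in hyperplastic skin, 57, 36, 56, 66 and 90 in papilloma and 97, 86, 98, 46 and 77 in cSCC. In CPM of total counts this was 27.2 ± 9.2 in cSCC, against 6.29 ± 2.2 in healthy skin (SD, n = 5 each), and 29.8 ± 24.1 in papilloma. Scarce entries of the other types did not scale with depth either: the 435 with a mean under 5 counts summed to 841 to 1611 counts in cSCC, 1041 to 1447 in papilloma, 904 to 1801 in hyperplastic skin and 913 to 1095 in healthy skin. With no low-count filter 13 of 35 misc_RNA entries rose in cSCC against healthy skin, where 32.6% of all 2127 entries did, and 7 in papilloma against healthy skin, where 26.1% of all did. Against hyperplastic skin, 11 rose in cSCC, where 28.7% of all did, and 7 in papilloma, where 21.4% of all did.

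**Figure D5:**
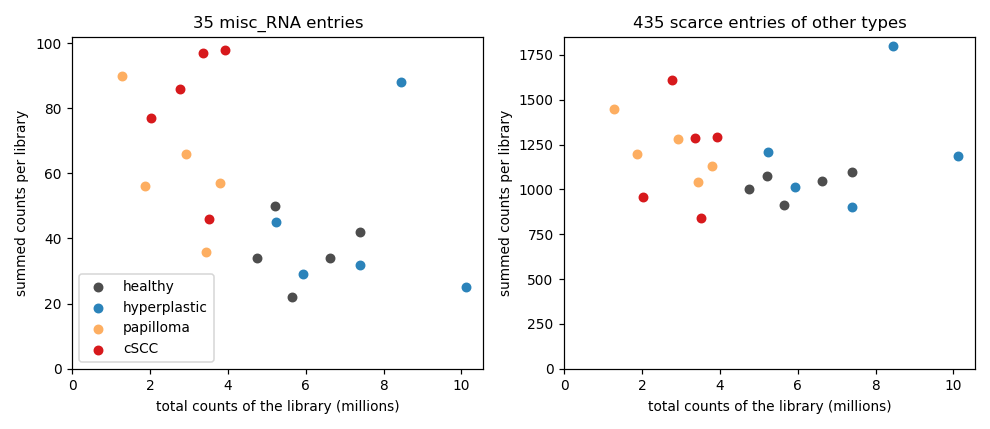
Summed counts of the 35 misc_RNA entries (left) and of the 435 scarce entries of other types (right) against the total count of the library; each dot is a library, coloured by group. Neither sum climbs with depth: the shallowest library, papilloma 6, has 90 misc_RNA counts and the deepest, hyperplastic 7, has 25.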

How the data were processed

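Total RNA was extracted with a Qiagen miRNeasy kit, made into libraries with an NEBNext small RNA set for SOLiD and size selected on gels, per the labels' protocols. The authors deposited 1 table of whole-number read counts, with the type and position of each of 2127 entries. The genome build mm9 is named in the submitters' processing notes. Aligner, annotation and counting of reads that match several places are not stated in these sources, and counts moved between copies or nested entries would change the values of single members. Without molecular identifiers, reads are not independent molecules.

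Members were identified by transcript ID in GENCODE M21 (GRCm38), by exact mitochondrial position and by BLASTN (BLAST 2.17.0, e-value at most 1e-05). Counts of all 20 libraries were fitted together with edgeR 4.0.16 (R 4.3.3, limma 3.58.1): 1522 entries passed filterByExpr, normalisation factors came from the TMM method on the 495 entries with a mean of at least 50 CPM (0.819 to 1.21), and quasi-likelihood F tests were run for 6 comparisons and across the 4 groups, with Benjamini-Hochberg adjustment over all tested entries and a threshold of 0.05. The model had 1 term per group. Alternatives were other scalings (TMM over all tested entries, DESeq2 1.42.0 size factors, total counts, mature miRNA counts), other filters, DESeq2 in place of edgeR, only the groups compared, a replicate block and leaving out each library.

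Depth ran from 1270588 to 10117810 counts per library, so scarce entries are less precise in the tumour groups. No replicate libraries agreed within sampling noise (smallest chi-square per degree of freedom 106.3 over 40 pairs). Named with values are the 6 members of each type with the highest mean CPM, the 4 largest called changes each way with a mean of at least 20 counts, and the RNA families by range, with FR393530 and Gm24292 added after their values were seen. The members and lists were chosen with earlier results of these data known. Sequences of members on chromosome 18 and of the 5S entries are not reported here.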

Additional observations from a re-analysis of the deposited data

Results flagged for a closer look

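Among 92 groups of 5 libraries examined, 9 held a library that stood apart from the other 4, and chance flags about 1 in 20 groups. Healthy 7 stood apart for the neighbouring snRNA entries FR171679 (199 CPM, the others 64.7 to 102) and FR395482 (134 CPM, the others 44.4 to 69.5), and thereby for the snRNA share of all counts (0.0495%, the others 0.0190% to 0.0229%). In cSCC 2 the rRNA share was 1.09%, the others 0.607% to 0.717%, and FR338578 stood at 11.9 CPM, the others 3.50 to 5.52 CPM. The rRNA entry FR203418 was low in healthy 4 (0.636 CPM, the others 2.86 to 3.62) and high in papilloma 6 (9.24 CPM, the others 1.31 to 2.92). FR393530 stood at 1.28 CPM in hyperplastic 8, the others at 0.180 to 0.317 CPM. The 12S window held 32.6% of 12S counts in hyperplastic 5, and 21.3% to 23.9% in the others.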

How the results depend on the processing

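The calls of 12S, its window, Gm26244 and FR393530 in cSCC against healthy skin held in every setting that tested them and without each library. Gm26244 and FR393530 passed the low-count filter mainly through the tumour libraries. The sign of 16S turned: its log2 fold change in papilloma against healthy skin was -0.16 with TMM factors over all tested entries and -0.28 with DESeq2 size factors, and in cSCC against healthy skin it was -0.19, -0.30 and, with mature miRNA counts, -0.14. The share of higher calls among all calls in cSCC against healthy skin was 78.8%, against 55.9% with TMM factors over all tested entries, 51.5% with DESeq2 size factors, 66.5% with total counts and 56.1% with mature miRNA counts. Over these 4 scalings it ranged from 51.4% to 86.2% in papilloma against healthy skin (78.3% as reported), 54.7% to 86% in papilloma (76.6%) and 41.6% to 60.8% in cSCC (75.2%) against hyperplastic skin, and 16.6% to 67.9% in cSCC against papilloma (77%). The causes were not tested.

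Counts of called members depended on the settings, and so did those of all 1522 tested entries. The next numbers follow the order TMM over all entries, DESeq2 size factors, total counts, mature miRNA counts. In papilloma against healthy skin, 340, 283, 554 and 490 rose (463 as reported). In cSCC against healthy skin, 377, 337, 446 and 357 rose (584 as reported). Against hyperplastic skin, 246, 243, 405 and 267 rose in papilloma (360), and 331, 329, 388 and 246 in cSCC (516). In papilloma against healthy skin, rRNA (0) gave 2 with total counts, 1 with mature miRNA counts, 2 with no low-count filter and 1 with DESeq2, and snRNA (3) gave 8 with no filter, 0 among entries of at least 50 CPM and 1 with only the groups compared. In cSCC against healthy skin, rRNA (3) gave 6 with no filter, and snRNA (8) gave 5 with TMM over all entries, 3 with DESeq2 size factors, 5 with total counts, 4 with mature miRNA counts, 22 with no filter, 2 at 50 CPM and 3 with only the groups compared. In papilloma against hyperplastic skin, rRNA (5) gave 0 with either TMM over all entries or DESeq2 size factors, 2 with mature miRNA counts and 3 at 50 CPM, and snRNA (2) gave 9 with no filter, 0 at 50 CPM and 0 with only the groups compared. In cSCC against hyperplastic skin, rRNA (5) gave 3 with mature miRNA counts, 8 with no filter and 3 at 50 CPM, and snRNA (6) gave 2, 22 and 2. In cSCC against papilloma, rRNA (0) gave 1 with no filter and 1 with DESeq2, and snRNA (0) gave 1 with DESeq2 size factors and 1 with DESeq2. Across the 4 groups, rRNA (4) gave 2 with DESeq2 size factors, 2 with mature miRNA counts and 7 with no filter, and snRNA (6) gave 3 with each of the other 4 scalings, 22 with no filter and 2 at 50 CPM. No filter tested all 20 rRNA, 52 snRNA and 35 misc_RNA entries. The misc_RNA entries then gave 7, 13, 7 and 11 in papilloma and cSCC against healthy skin and in papilloma and cSCC against hyperplastic skin. In that order, 26.1%, 32.6%, 21.4% and 28.7% of all 2127 entries rose.

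Leaving out each library in turn gave 0 to 2 rRNA, 3 to 4 snRNA and 0 to 1 misc_RNA calls in papilloma against healthy skin, and 2 to 3, 5 to 10 and 0 to 1 in cSCC against healthy skin. It gave 1 to 5, 2 to 5 and 0 to 1 in papilloma against hyperplastic skin, and 4 to 5, 5 to 9 and 0 to 1 in cSCC against hyperplastic skin. It gave 0 to 1 rRNA and 0 to 1 snRNA calls in cSCC against papilloma, and 3 to 5 rRNA and 6 to 10 snRNA calls across the 4 groups. No pairing of libraries by replicate number was seen: deviations of the 17 same-numbered pairs correlated at -0.153 to 0.215 (median -0.002), with 3 over 0.1. Such correlations cannot tell whether same-numbered libraries share a mouse or a batch. With the replicate number as a block, papilloma against hyperplastic skin gave 0 rRNA and 1 snRNA calls, and 11 of the 32 calls of members were lost. Entries with a mean under 5 counts, which include every misc_RNA entry, were left out by the low-count filter, and their values rest on few counts per library.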
